A study of Mus musculus with 8 samples.

Results

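The genes described here are the 38 members of the unfolded protein response and the integrated stress response that were named as a list by symbol, across cultured mouse eosinophils. All 38 were found among the 15917 genes of the count table by matching each Ensembl identifier to its symbol, and all 38 were among the 15913 genes that passed the filter on low counts. The list was set by gene function and not by a cut on measured values, but it was chosen with earlier results of these data known. It holds 4 sensors and their factor Xbp1, 11 chaperones and folding enzymes of the endoplasmic reticulum (ER), 4 genes of ER-associated degradation, 5 transcription factors of the integrated stress response, 4 feedback and stress effectors, 7 enzymes of amino acid and folate metabolism, and 3 tRNA synthetases.

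The study asked how eosinophils respond to type 1 and type 2 cytokines, and measured mRNA by stranded sequencing in 8 libraries, 2 in each of 4 groups. All cells were blood eosinophils from C57BL/6 mice that carry an IL-5 transgene (line NJ.1638), although the genotype label reads WT. Cells bearing CD90 or B220 were removed with beads, purity was over 97% by cytospin, and every culture ran for 18 h. In the first experiment, CN received no cytokine and E1 received IFN-γ and TNF-α at 15 ng/mL. In the second, E0 received 10 ng/mL IL-5, and E2 received IL-5, GM-CSF and IL-4 at 10 ng/mL each together with 30 ng/mL IL-33. The comparisons are therefore E1 with CN, and E2 with E0. E0 and CN were cultured in different experiments, so the effect of IL-5 and that of the experiment cannot be told apart.

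When misfolded proteins build up in the ER, the sensors IRE1 (Ern1), ATF6 and PERK (Eif2ak3) start the unfolded protein response. IRE1 splices Xbp1 mRNA so that it encodes an active factor, and XBP1 and ATF6 raise chaperone and folding genes. PERK and its sister kinases phosphorylate the initiation factor eIF2α, which lowers general translation but raises translation of Atf4, the starting point of the integrated stress response. ATF4 and its partners raise genes for amino acid synthesis, amino acid import and tRNA charging. XBP1 is known to be needed for eosinophil development in mice. Gene counts report total mRNA: they hold neither the spliced share of Xbp1 nor eIF2α phosphorylation nor ATF4 protein.

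Libraries held 60809057 to 95065752 counts. Levels are given as CPM, a gene's counts per 1000000 counts of its library, scaled between libraries by TMM, a method that takes most genes as unchanged. Changes are log2 fold changes from edgeR's quasi-likelihood test with Benjamini-Hochberg adjustment over all 15913 genes, called at an adjusted p under 0.05. Genes known to answer the stimuli moved with the labels: Irf1 rose by 4.23 in E1 over CN, and Ccl17 rose by 5.59 and Il13 by 5.33 in E2 over E0. In every group, replicate 1 held 5125 to 8149 counts of the Y-linked gene Ddx3y and replicate 2 held 0, so replicate number went with the sex of the source animals. The labels do not say whether replicates were separate cultures or pools, and p-values measure the spread between these samples only.

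With type 2 cytokines, 20 of the 38 genes were called higher and 1 lower in E2 than in E0. Among all genes tested in that comparison, 17.0 percent were called higher and 18.5 percent lower. The median log2 change of the 38 was 0.40, against -0.02 over all genes. With IFN-γ and TNF-α, 3 were called higher and 3 lower in E1 than in CN, where 9.19 percent of all genes were called higher and 8.08 percent lower. There the median of the 38 was 0.01, against -0.01 over all genes. The share of the list called in E1 was thus near the background, while the share called higher in E2 was above it. The difference between the responses, E2 over E0 minus E1 over CN, was called positive for 14 genes and negative for 2, with a background of 11.3 percent and 14.0 percent. That difference joins 2 experiments, and a step between them cancels only where it acted alike on both groups of an experiment. Scaling by library totals alone moved the split over all genes in E1 from 1463 higher and 1286 lower to 1190 and 1891. Among the 38 it left 2 higher and 7 lower.

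**Figure D1:**
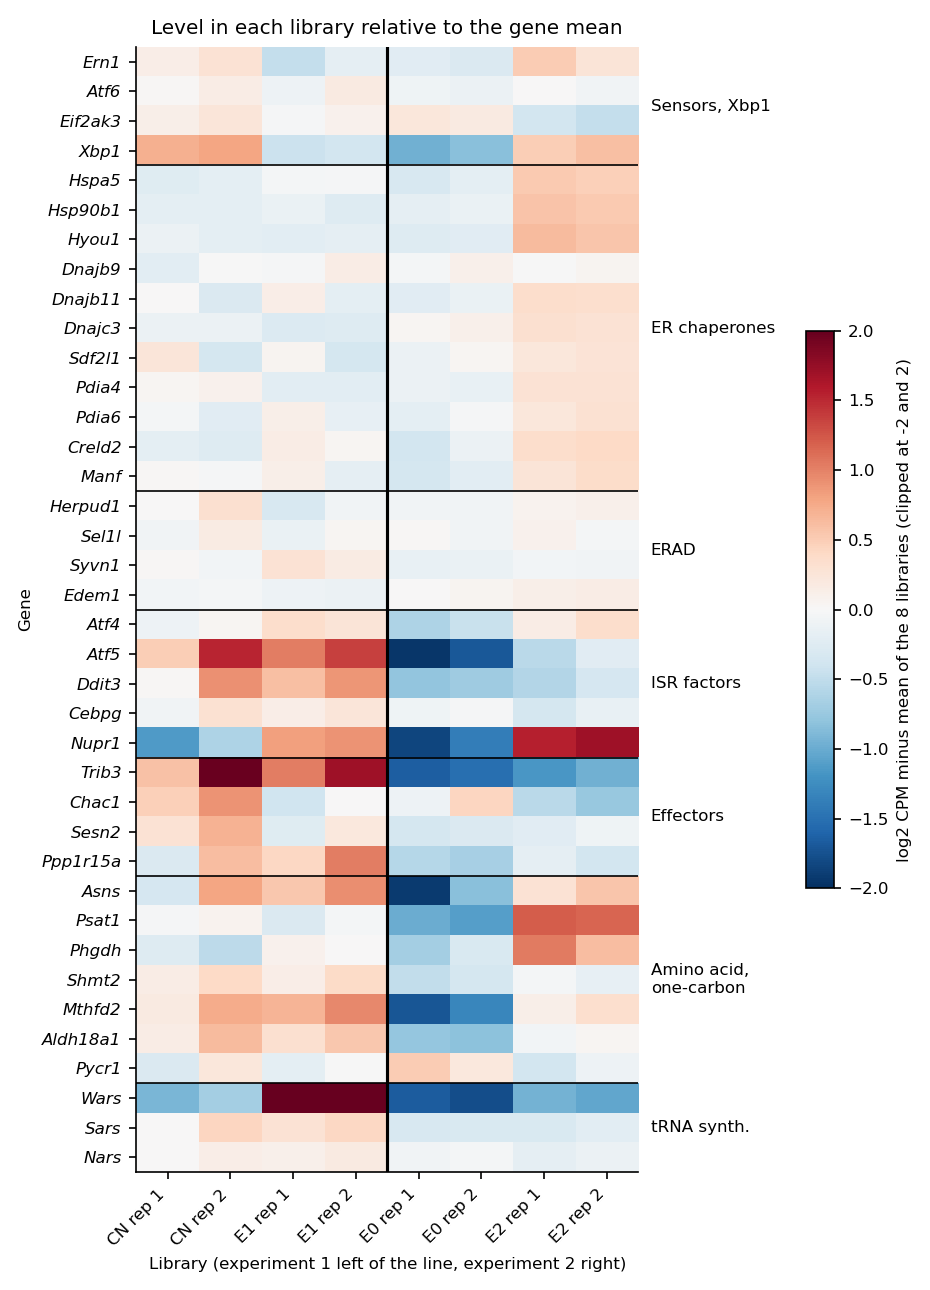
Each row is a gene, grouped by role, and each column is a library. Colour gives log2 CPM minus the gene's mean over the 8 libraries, clipped at -2 and 2. ER chaperones other than Dnajb9 and Sdf2l1 are highest in the E2 libraries, Xbp1 is low in E1 and E0, and Wars is far above its mean in E1.

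Xbp1 (mm10 chromosome 11, 5520659 to 5525893) was the member with the highest level per kilobase of exon, and it moved in opposite directions in the 2 comparisons. Its level was 677 and 714 CPM in CN and 309 and 321 CPM in E1. It was 214 and 232 CPM in E0 and 586 and 629 CPM in E2. No library of a treated group overlapped its controls. Xbp1 fell by 1.14 (SE 0.08; adjusted p = 3.21e-05) in E1, a 2.21-fold lower level, and rose by 1.45 (SE 0.08; adjusted p = 1.23e-05) in E2, a 2.73-fold higher level. The responses differed by 2.59 (SE 0.11; adjusted p = 2.95e-06). Both calls held under all 15 alternative settings. E2 ended between E1 and CN, so the high level in E2 was a rise from a low E0 and did not pass that of CN.

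The sensor Ern1, the kinase and nuclease that splices Xbp1 mRNA, had the same signs with smaller steps. It read 73.5 and 82.4 CPM in CN but 48.3 and 59.3 CPM in E1, and 57.6 and 54.9 CPM in E0 but 95.6 and 80.5 CPM in E2. It fell by 0.53 (SE 0.12; adjusted p = 0.0169) in E1 and rose by 0.65 (SE 0.12; adjusted p = 0.00408) in E2, and the difference was 1.18 (adjusted p = 0.00161). Without CN replicate 2 or without E1 replicate 1 the fall in E1 was no longer called, with an adjusted p of up to 0.0869. Eif2ak3, the ER kinase that phosphorylates eIF2α, was the only member called lower in E2. It read 66.7 and 64.3 CPM in E0 and 44.2 and 40.9 CPM in E2, against 61.7 and 67.1 CPM in CN and 56.2 and 60.5 CPM in E1. The 2 E2 libraries were the lowest of the 8, and the fall was 0.62 (SE 0.08; adjusted p = 0.000762). In E1 its change was -0.14 (adjusted p = 0.285). The difference of -0.48 between the responses had an adjusted p of 0.0165, and of up to 0.068 without CN replicate 1, E0 replicate 1 or E2 replicate 2. Atf6, the sensor that is cut in the Golgi to free a transcription factor, lay between 43.4 and 53.1 CPM in all 8 libraries and was called in no comparison. Among the sensors and Xbp1, E2 therefore held 2 rises, 1 fall and 1 gene not called.

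The ER chaperones and folding enzymes moved mostly one way in E2, with 9 of 11 called higher, none lower and a median log2 change of 0.53. In E1 a single member of the 11 was called, and it was lower. Hspa5 (chromosome 2, 34771970 to 34777547) encodes the chaperone BiP, which holds the sensors inactive. It read 126 and 130 CPM in CN, 145 and 147 CPM in E1, 119 and 130 CPM in E0, and 213 and 208 CPM in E2. Both E2 libraries stood above the other 6. It rose by 0.76 (SE 0.06; adjusted p = 6.25e-05) in E2, and its change of 0.19 in E1 had an adjusted p of 0.0616. Hsp90b1, the ER form of HSP90, read 457 and 471 CPM in E0 and 766 and 746 CPM in E2, a rise of 0.70 (SE 0.07; adjusted p = 0.000294). In CN it read 452 and 450 CPM and in E1 469 and 431 CPM, groups that overlapped. Hyou1, a large chaperone that acts as exchange factor for BiP, rose by 0.82 (SE 0.07; adjusted p = 0.00011), from 41.5 and 42.5 CPM to 76.4 and 72.4 CPM. This was the largest rise in the group, and CN and E1 lay between 42.8 and 45.5 CPM. The responses of Hspa5, Hsp90b1 and Hyou1 differed between the experiments by 0.56, 0.71 and 0.86, with adjusted p-values of 0.00198, 0.00197 and 0.000633.

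Pdia4, a disulfide isomerase, was the chaperone called in both comparisons, with opposite signs. It read 85.4 and 87.9 CPM in CN, 72.2 and 71.6 CPM in E1, 76.7 and 75.0 CPM in E0, and 101 and 101 CPM in E2. It fell by 0.27 (adjusted p = 0.0106) in E1 and rose by 0.42 (adjusted p = 0.000777) in E2. The fall was lost without CN replicate 2 and in a fit to the 4 libraries of the first experiment, with an adjusted p of up to 0.072. Creld2, an ER protein with isomerase activity, rose by 0.62 (adjusted p = 0.00256) in E2, from 12.4 and 14.7 CPM to 20.4 and 21.1 CPM. Its change of 0.32 in E1 had an adjusted p of 0.0696. Manf, an ER-resident protein that is also secreted, rose by 0.59 (adjusted p = 0.00466) in E2, from 35.2 and 38.7 CPM to 53.6 and 57.7 CPM. Manf shares bases with Dcaf1 and Rbm15b on other transcripts, and the rule for reads in shared stretches is not stated in the labels.

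The remaining calls in this group were smaller. The co-chaperone Dnajb11 rose by 0.53 (adjusted p = 0.0124), Dnajc3, a co-chaperone that also inhibits PERK, by 0.23 (adjusted p = 0.0132), and the isomerase Pdia6 by 0.37 (adjusted p = 0.0307). These 3 calls were lost without E0 replicate 1, without E2 replicate 1 and without E2 replicate 2, with adjusted p-values of up to 0.0732, 0.10 and 0.173. Dnajb9, a BiP co-chaperone that is a known target of XBP1, lay between 17.4 and 22.3 CPM in all libraries, and its change in E2 was -0.02 (adjusted p = 0.915). Sdf2l1, which assists the BiP cycle, changed by 0.30 in E2 (SE 0.20; adjusted p = 0.274), and its CN libraries differed from each other, at 21.7 and 14.4 CPM. Xbp1 and Dnajb9 thus showed unlike values in E2, a rise and no called change.

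**Figure D2:**
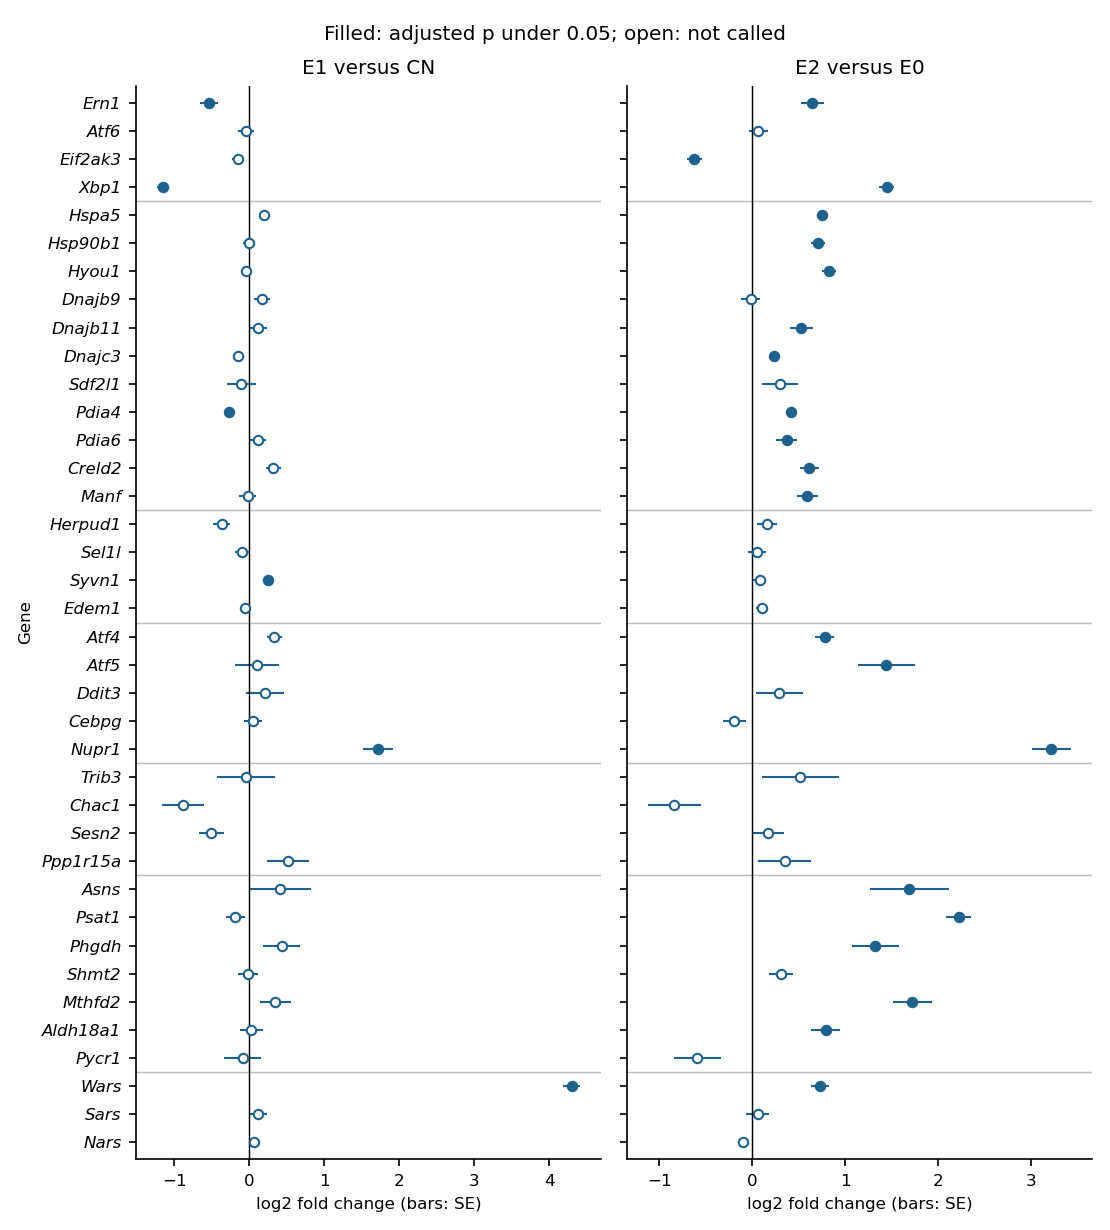
Points give the log2 fold change of each member with its standard error, E1 over CN on the left and E2 over E0 on the right, and filled points were called. The x axes differ in range. Filled points lie mostly right of 0 in E2 and on both sides in E1.

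The promoters of the chaperones are shown because 5 of the 9 available carry a textbook ER stress element. The element is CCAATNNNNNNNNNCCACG, bound by ATF6 and XBP1 together with the factor NF-Y, and it was searched on both strands from 250 bases before to 50 bases after the gene start in RefSeq promoters of build GRCm38.p6. Of the 38 members, 33 had a promoter in that table. The element was found in 6 of these 33 genes, and in 0.119 percent of the 32851 promoters of the same length. Starts and distances are those of RefSeq. They can lie inside the gene span given by GENCODE, which takes in every transcript of a gene, as they do for Hspa5 and Nupr1. A match is a description of letters and does not show that a factor was bound. The windows were chosen after the values were seen, and capitals mark the fixed letters of the element.
Hspa5, chr2:34772015-34772053, plus strand, 65 bases before the start: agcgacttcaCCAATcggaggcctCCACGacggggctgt
Hsp90b1, chr10:86705523-86705561, minus strand, 107 bases before the start: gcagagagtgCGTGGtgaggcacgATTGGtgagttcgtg
Hsp90b1, chr10:86705628-86705666, minus strand, 212 bases before the start: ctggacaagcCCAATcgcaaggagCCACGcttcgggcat
Dnajc3, chr14:118937817-118937855, plus strand, 105 bases before the start: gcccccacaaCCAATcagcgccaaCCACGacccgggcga
Pdia6, chr12:17266481-17266519, plus strand, 98 bases before the start: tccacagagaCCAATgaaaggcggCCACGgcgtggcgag
Creld2, chr15:88819510-88819548, plus strand, 126 bases before the start: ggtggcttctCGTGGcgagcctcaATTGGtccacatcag
Syvn1, chr19:6046522-6046560, plus strand, 44 bases before the start: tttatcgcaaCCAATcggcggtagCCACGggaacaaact

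The 5 chaperones of these windows were called higher in E2, as were 9 of the 11 chaperones in all. Of the 4 chaperones with a promoter but no element, Pdia4 and Dnajb11 were also called higher and Dnajb9 and Sdf2l1 were not. Syvn1, which carries the element, was not called in E2. Hsp90b1 held 2 copies on opposite strands, and the copy of Creld2 read on the strand opposite to the gene. A second XBP1 motif, TGACGTGG, was found in none of the 33 genes and in 0.676 percent of all promoters. The promoters of Hyou1 and Manf were not among those matched.

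None of the 4 genes of ER-associated degradation, which moves misfolded proteins back to the cytosol for the proteasome, was called in E2. Syvn1, the ubiquitin ligase HRD1, was called higher in E1, at 78.5 and 71.3 CPM against 64.6 and 61.5 CPM in CN. The change was 0.25 (SE 0.07; adjusted p = 0.0443), and 9 of 15 alternatives lost it, with an adjusted p of up to 0.207. These include leaving out either CN library, E1 replicate 1 or any library of the second experiment. Herpud1, which assembles the ligase complex, read 176 and 218 CPM in CN, 140 and 166 CPM in E1, 166 and 165 CPM in E0, and 183 and 187 CPM in E2. Neither of its changes was called (-0.37 with adjusted p = 0.0595 in E1, 0.16 with adjusted p = 0.301 in E2). Without CN replicate 1 the change in E1 was -0.50, and without E1 replicate 2 it was -0.49. With all 8 libraries, it was called lower with library totals alone (adjusted p = 0.0257) and by DESeq2 (adjusted p = 0.0252). A replicate block also called it lower (adjusted p = 0.000228). The block is a term for replicate number within each experiment, and this number went with sex in every group. The labels do not say that these numbers pair samples. With the block the change in E2 was called higher (adjusted p = 0.0147). Their difference of 0.52 had an adjusted p of 0.0429, lost in 6 of 14 alternatives, without CN replicate 2, E1 replicate 1 or any library of the second experiment, with an adjusted p of up to 0.122. Sel1l, the adaptor of HRD1, lay between 108 and 133 CPM and Edem1, a lectin that hands over glycoproteins, between 248 and 297 CPM, and neither was called.

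Among the 5 transcription factors of the integrated stress response, 3 were called higher in E2 and 1 in E1. Atf4, the central factor, read 258 and 285 CPM in CN, 354 and 331 CPM in E1, 181 and 204 CPM in E0, and 307 and 354 CPM in E2. Treated libraries were above their own controls in both experiments. It rose by 0.78 (SE 0.10; adjusted p = 0.000748) in E2. In E1 the change was 0.33 (SE 0.10) with an adjusted p of 0.0548, and the difference between the responses was 0.44 (adjusted p = 0.0518). With all 8 libraries, that difference was called with library totals alone, by DESeq2 (adjusted p = 0.0202) and by limma-voom. A replicate block also called it (adjusted p = 0.00228). Without E2 replicate 1 it was 0.54. DESeq2, limma-voom and the replicate block called Atf4 higher in E1, with adjusted p-values of 0.0119, 0.0443 and 0.00191.

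Nupr1 (chromosome 7, 126623249 to 126630861), a small chromatin protein induced by stress, rose in both comparisons and more in E2. Its CPM were 3.31 and 4.71 in CN and 12.8 and 13.5 in E1. They were 2.03 and 2.78 in E0 and 21.4 and 23.6 in E2. The 4 treated libraries were all above the 4 controls. The rise was 1.72 (SE 0.20; adjusted p = 0.00051) in E1 and 3.22 (SE 0.21; adjusted p = 2.47e-05) in E2, which is 3.29-fold and 9.30-fold. The responses differed by 1.5 (SE 0.28; adjusted p = 0.00544). No other member was called higher in both comparisons except Wars.

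Atf5, an ATF4-like factor active in mitochondrial stress, rose by 1.44 (SE 0.30; adjusted p = 0.00747) in E2, from 8.56 and 10.1 CPM to 22.7 and 28.2 CPM. In CN it read 46.5 and 94.9 CPM, so that both E2 libraries were below both CN libraries, and E1, at 67.2 and 84.7 CPM, overlapped CN. Without E0 replicate 1 or E2 replicate 2 the rise had an adjusted p of up to 0.0503. The difference from the E1 response was 1.34 (adjusted p = 0.0495), a call lost in 10 of 14 alternatives, with an adjusted p of up to 0.149, among them every fit without a single library except the one without CN replicate 1. Atf5 overlaps Il4i1 on the opposite strand, and the strand setting of the counting is not stated in the labels, so reads from the stretch that the 2 genes share may not be told apart. Il4i1 read 12.4 and 14.8 CPM in E0 and 42.5 and 47.8 CPM in E2, and 16.3 and 25.5 CPM in CN.

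Ddit3, which encodes the death-promoting factor CHOP, was called in neither comparison. It read 33.7 and 61.9 CPM in CN, 49.9 and 60.6 CPM in E1, 19.1 and 20.2 CPM in E0, and 21.9 and 26.2 CPM in E2. The CN libraries alone spanned the E1 range, and the change was 0.21 in E1 (SE 0.25; adjusted p = 0.632) and 0.29 in E2 (SE 0.25; adjusted p = 0.403). Without CN replicate 2 the change in E1 was 0.71 with an adjusted p of 0.0251. Ddit3 also overlaps the neighbouring gene Mars, on the opposite strand. Cebpg, the dimer partner of ATF4, lay between 70.3 and 111 CPM and was not called.

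**Figure D3:**
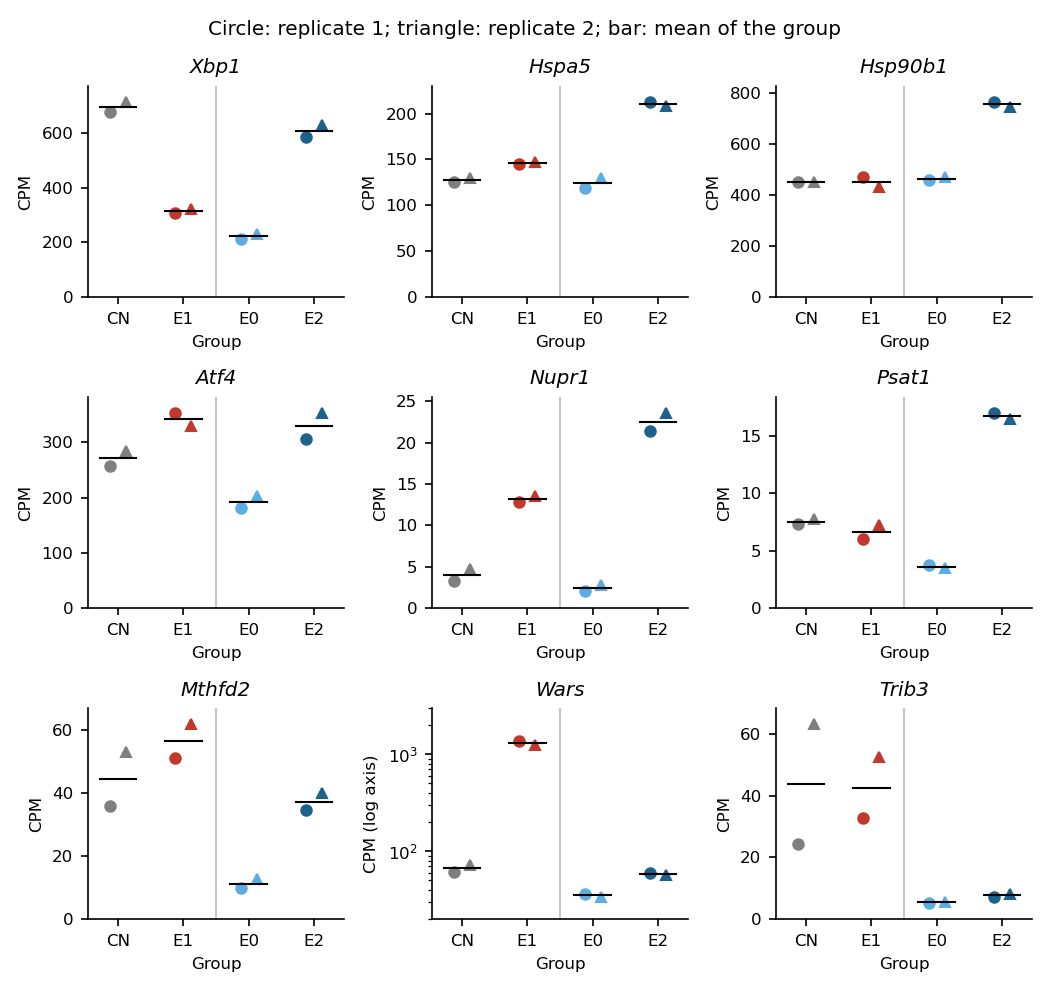
CPM of 9 members in each library: circles are replicate 1, triangles replicate 2, bars the group mean, and the Wars axis is logarithmic. Xbp1 falls in E1 and rises in E2, Hspa5 and Hsp90b1 stand out in E2, and the CN libraries of Trib3 lie far apart, at 24.3 and 63.5 CPM.

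The 6 members with a CARE motif, TGATGNAA, which is read by ATF4 with a C/EBP partner, are shown for the same reason. The motif was found in 6 of the 33 matched genes and in 3.97 percent of all promoters, both strands searched. Capitals mark its fixed letters.
Nupr1, chr7:126625563-126625590, minus strand, 110 bases before the start: aagggccagaTTgCATCAgacagggctt
Asns, chr6:7693215-7693242, minus strand, 23 bases before the start: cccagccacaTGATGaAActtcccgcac
Trib3, chr2:152344029-152344056, minus strand, 15 bases after the start: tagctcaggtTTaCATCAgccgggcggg
Chac1, chr2:119351039-119351066, plus strand, 193 bases before the start: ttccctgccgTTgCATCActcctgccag
Herpud1, chr8:94386307-94386334, plus strand, 112 bases before the start: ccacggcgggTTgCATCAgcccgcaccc
Pycr1, chr11:120643834-120643861, minus strand, 103 bases before the start: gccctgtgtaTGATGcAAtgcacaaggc

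Of these 6 genes, Nupr1 and Asns were called higher in E2, and Trib3, Chac1, Herpud1 and Pycr1 were called in neither comparison. The 250 bases before the RefSeq start of Nupr1, the matched member with the largest change in both comparisons, are printed whole, with the CARE motif in capitals.
Nupr1, chr7:126625471-126625720, minus strand: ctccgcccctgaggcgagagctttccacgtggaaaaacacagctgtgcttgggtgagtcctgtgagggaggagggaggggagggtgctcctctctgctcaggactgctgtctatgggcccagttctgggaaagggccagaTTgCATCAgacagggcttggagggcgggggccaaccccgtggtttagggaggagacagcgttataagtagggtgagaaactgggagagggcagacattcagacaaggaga

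This stretch also holds the letters TTCNNNGAA of the interferon-γ element GAS, 128 bases before the start. GAS was found in 4 of the 33 genes (Aldh18a1, Eif2ak3, Nupr1 and Shmt2) and in 8.3 percent of all promoters. The interferon element GAAANNGAAA was found in Ppp1r15a alone, and in 3.44 percent of all promoters. Wars, the member with the largest change under IFN-γ and TNF-α, had no promoter in the table.

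The feedback and stress effectors, genes that act downstream of ATF4 and CHOP, held no call in either comparison in the main edgeR fit. That fit had TMM scaling and 1 mean per group. With a replicate block, Chac1 and Sesn2 were called lower and Ppp1r15a higher in E1. In E2 the block called Chac1 lower and Sesn2, Ppp1r15a and Trib3 higher. Over all genes the block raised calls to 17.5 percent higher and 17.2 percent lower in E1, and to 26.1 and 27.5 percent in E2. Trib3, a pseudokinase that restrains ATF4 signalling, read 24.3 and 63.5 CPM in CN, 32.7 and 52.5 CPM in E1, 5.15 and 5.64 CPM in E0, and 7.21 and 8.27 CPM in E2. Its CN libraries lay on either side of both E1 libraries, and its changes were -0.04 (SE 0.39; adjusted p = 0.96) in E1 and 0.52 (SE 0.41; adjusted p = 0.362) in E2. Sesn2, a leucine sensor that restrains mTORC1, read 78.3 and 105 CPM in CN and 54.2 and 74.8 CPM in E1. The groups did not overlap, and the change of -0.50 had an adjusted p of 0.084. It was called lower without CN replicate 1 (-0.68; adjusted p = 0.0441) or E1 replicate 2, by DESeq2 and with library totals alone. Ppp1r15a, the GADD34 subunit that lets eIF2α be dephosphorylated, changed by 0.52 (SE 0.28; adjusted p = 0.273) in E1, and by 1.04 (adjusted p = 0.0242) without CN replicate 2. Chac1, which degrades glutathione, had 64 to 214 counts a library and changes of -0.88 (adjusted p = 0.0648) in E1 and -0.84 (adjusted p = 0.0501) in E2. It was called lower in E2 in the fits without E1 replicate 1, without E1 replicate 2 and without E0 replicate 1, and in E1 with library totals alone. In a fit to the 4 libraries of the second experiment, Trib3 (adjusted p = 0.025) and Ppp1r15a (adjusted p = 0.0351) were called higher in E2.

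Enzymes of amino acid and folate metabolism were the group with the largest median change in E2, 1.32, with 5 of 7 called higher. None of the 7 was called in E1. In serine synthesis, Psat1 read 3.73 and 3.46 CPM in E0 and 17.0 and 16.5 CPM in E2, against 7.29 and 7.77 CPM in CN and 6.04 and 7.20 CPM in E1. The E2 libraries were the highest and the E0 libraries the lowest. The rise was 2.22 (SE 0.13; adjusted p = 1.65e-05), or 4.66-fold, and the responses differed by 2.41 (adjusted p = 5.7e-05). Phgdh, the enzyme that starts that pathway, was near 1 CPM in CN and E0 and had 155 and 228 counts in the E2 libraries. Its rise was 1.32 (SE 0.25; adjusted p = 0.00469).

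Mthfd2, a mitochondrial folate enzyme, read 9.77 and 12.8 CPM in E0 and 34.6 and 40.0 CPM in E2. In CN it read 35.9 and 53.1 CPM and in E1 51.2 and 62.1 CPM, so E2 rose from a low E0 to about the lower CN library. The rise was 1.72 (SE 0.21; adjusted p = 0.000593), and the difference from the E1 response was 1.37 (adjusted p = 0.0102). Aldh18a1, which starts proline synthesis, rose by 0.79 (adjusted p = 0.00547), from 17.2 and 16.6 CPM to 28.3 and 30.1 CPM. The difference from the E1 response was 0.76 (adjusted p = 0.0352), lost in 6 of 14 alternatives with an adjusted p of up to 0.107, without CN replicate 2, E1 replicate 1 or any library of the second experiment. Asns, which makes asparagine, rose by 1.69 (SE 0.42; adjusted p = 0.016), from 1.30 and 2.73 CPM to 5.96 and 7.21 CPM. That call was lost without E0 replicate 1 or E2 replicate 2, with an adjusted p of up to 0.0822. Shmt2, the mitochondrial serine hydroxymethyltransferase, changed by 0.31 (adjusted p = 0.103) and Pycr1, which completes proline synthesis, by -0.59 (adjusted p = 0.102) in E2. Pycr1 had 106 to 156 counts a library.

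Wars (chromosome 12, 108860030 to 108894174), the cytosolic tryptophan synthetase that is a known target of IFN-γ, had the largest change of the list. It read 61.6 and 72.2 CPM in CN and 1373 and 1261 CPM in E1. In E0 it read 36.6 and 33.7 CPM and in E2 60.1 and 56.3 CPM, so that both E2 libraries stayed below both CN libraries. Wars shares bases with Wdr25 on the opposite strand, which read 16.5 and 14.5 CPM in CN, 20.4 and 12.3 CPM in E1, 7.76 and 7.24 CPM in E0, and 16.6 and 12.6 CPM in E2. The rise was 4.30 (SE 0.11; adjusted p = 1.34e-07), or 19.7-fold, in E1 and 0.73 (SE 0.10; adjusted p = 0.000993), or 1.66-fold, in E2. The responses differed by -3.57 (SE 0.14; adjusted p = 2.17e-06), the larger of the 2 negative differences in the list. The synthetases for serine and asparagine, Sars and Nars, were called in neither comparison, with changes of 0.12 and 0.07 in E1 and 0.06 and -0.09 in E2. Without CN replicate 2, Sars changed by 0.34 in E1 with an adjusted p of 0.0499. With all 8 libraries, the rise in E1 was thus called for Wars alone in this group.

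The other genes of these pathways were counted from lists set by function, also with earlier results of these data known. The named genes were chosen by size of change. Among all genes tested, 17.0 percent were called higher and 18.5 percent lower in E2. In E1 these shares were 9.19 and 8.08 percent. Of 17 other cytosolic tRNA synthetases, 13 were called higher in E2 and 4 in E1, with none lower in either, and the medians were 0.43 and 0.22. Aars rose by 1.51 (adjusted p = 0.00156) and Iars by 0.91 (adjusted p = 0.00198) in E2, and Vars rose by 0.83 (adjusted p = 0.000187) and Kars by 0.70 (adjusted p = 0.00115) in E1. Of 23 genes of ER translocation and N-glycosylation, 11 were called higher and none lower in E2 (median 0.26), among them the translocon subunit Ssr2 (0.69; adjusted p = 0.00992) and the signal peptidase subunit Spcs2 (0.69; adjusted p = 0.000862). In E1 Spcs3 was the only call of these and fell by 0.35 (adjusted p = 0.0149).

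Other ER folding genes were called higher for 4 of 12 in E2 (median 0.12) and for 3 of 12 in E1, where 1 more was lower. Calr, the glycoprotein chaperone calreticulin, rose in both, by 0.65 (adjusted p = 0.000248) in E2 and 0.34 (adjusted p = 0.00863) in E1. P4hb, the main disulfide isomerase, rose by 0.84 (adjusted p = 5.95e-05) in E2 and fell by 0.31 (adjusted p = 0.0125) in E1, the signs of Pdia4. Ero1lb, an oxidase that serves these isomerases, rose by 0.50 (adjusted p = 0.0163) in E1. Of 14 other degradation genes, 1 was called higher and 2 lower in E2 (median -0.03) and none in E1. Neither share in E2 was above the 17.0 percent higher and 18.5 percent lower over all genes. Selenos rose by 0.36 (adjusted p = 0.0468), Edem2 fell by 0.45 (adjusted p = 0.00542) and the lectin Os9 fell by 0.34 (adjusted p = 0.0128).

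The other kinases of eIF2α did not share the fall of Eif2ak3 in every case. Eif2ak2, the interferon-induced kinase PKR, rose by 1.80 (adjusted p = 6.76e-06) in E1, from 16.8 and 15.1 CPM to 58.9 and 52.2 CPM, and by 0.37 (adjusted p = 0.019) in E2. Eif2ak1, the haem-regulated kinase, fell by 0.35 (adjusted p = 0.00399) and Eif2ak4, the amino acid sensor GCN2, by 0.31 (adjusted p = 0.0428) in E2. Of 9 genes for eIF2, its exchange factor and the phosphatase subunit Ppp1r15b, 4 were called higher in E2 (median 0.27) and none in E1. Eif2s1, which encodes eIF2α itself, rose by 0.68 (adjusted p = 0.000749) and Eif2s2 by 0.44 (adjusted p = 0.0205). Ppp1r15b itself changed by 0.07 (adjusted p = 0.597) in E1.

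Of 19 other genes linked to ATF4, 5 were called higher and 5 lower in E2 (median 0.07), and 2 each way in E1. The shares in E1 were near the 9.19 percent higher and 8.08 percent lower over all genes. In E2 the amino acid transporter Slc7a5 rose by 1.78 (adjusted p = 0.00502) and the folate enzyme Aldh1l2 by 1.15 (adjusted p = 0.000126), while Ddit4 fell by 0.79 (adjusted p = 0.000798) and Eif4ebp1 by 0.25 (adjusted p = 0.0415). In E1 the stress factor Atf3 rose by 1.66 (adjusted p = 0.000936) and the transporter subunit Slc3a2 by 0.36 (adjusted p = 0.0152), while Aldh1l2 fell by 0.83 (adjusted p = 0.000842) and the transporter Slc38a2 by 0.40 (adjusted p = 0.0121). Cytosolic heat shock genes were called higher for 6 of 10 in E2 (median 0.87) and 1 of 10 in E1, the latter near the share over all genes. Hspa8 rose by 1.24 (adjusted p = 0.00126) in E2 and by 0.64 (adjusted p = 0.0401) in E1, and Hsp90aa1 by 0.97 (adjusted p = 0.000642) in E2. Of 6 mitochondrial chaperones and proteases, Hspe1 (0.54; adjusted p = 0.0167) and Hspd1 (0.40; adjusted p = 0.015) were called higher in E2, and none was called in E1, where Hspa9 changed by 0.06 (adjusted p = 0.87).

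Between the 2 control groups, 16 members were lower and 1 higher in E0 than in CN, where 11.9 percent of all genes were called lower and 13.5 percent higher. Group and experiment cannot be told apart here, and this comparison shares its libraries with both others. Scaling by library totals alone moved the split over all genes from 2141 higher and 1897 lower to 2561 and 1270, and among the 38 to 1 higher and 14 lower. The lower calls were 4 of the 5 factors of the integrated stress response, 5 of 7 amino acid and folate enzymes, 2 of 4 effectors, 2 of 3 synthetases, and Xbp1 and Ern1 among the 4 sensors and Xbp1. Among the 11 chaperones, Pdia4 was lower and Dnajc3 higher.

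Trib3 was lower in E0 by 3.02 (SE 0.43; adjusted p = 0.00179), or 8.12-fold, and Atf5 by 2.92 (SE 0.32; adjusted p = 0.000446), or 7.54-fold. Their values in the 4 libraries were given above: the lower CN library of each was more than 4 times the higher E0 library. Mthfd2 was lower by 1.98 (adjusted p = 0.000427), Xbp1 by 1.64 (adjusted p = 7.73e-06), Ddit3 by 1.28 (adjusted p = 0.00835) and Aldh18a1 by 1.21 (adjusted p = 0.00112). Psat1 was lower by 1.07 (adjusted p = 0.000834), Wars by 0.93 (adjusted p = 0.000427) and Shmt2 by 0.69 (adjusted p = 0.00711). These 9 calls held in all 15 alternatives. The calls of Ern1, Dnajc3, Pdia4, Atf4, Nupr1, Sesn2, Asns and Sars were lost without CN replicate 2, and the same 8 were lost without E0 replicate 1, leaving 9 lower in each case. Over the alternatives, the highest adjusted p of each of these 8 lay between 0.0546 (Sesn2) and 0.249 (Dnajc3). The higher call, Dnajc3 with 0.19 (adjusted p = 0.043), was lost in 10 of 15.

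Within CN, the 2 replicates differed most in the genes of the integrated stress response. In CN, replicate 2 was above replicate 1 for all 5 factors and all 4 effectors, with median log2 differences of 0.51 and 0.66, and for 6 of 7 amino acid and folate enzymes, with a median of 0.48. Trib3 was 2.61-fold and Atf5 2.04-fold higher in CN replicate 2. In E1 all 4 effectors were again above, with a median of 0.53. Over the 38 genes, replicate 2 was the higher in 28 in CN, 26 in E1, 27 in E0 and 21 in E2, against 49.5, 45.4, 51.7 and 51.8 percent of all genes. The ER chaperones did not share this in CN and E1, with 3 of 11 higher in replicate 2 in CN and 4 of 11 in E1. In E0, 10 of 11 chaperones were higher in replicate 2, with a median log2 difference of 0.12, and the effectors had a median of 0.10. Replicate number went with sex in every group, and its part in these differences was not tested.

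**Figure D4:**
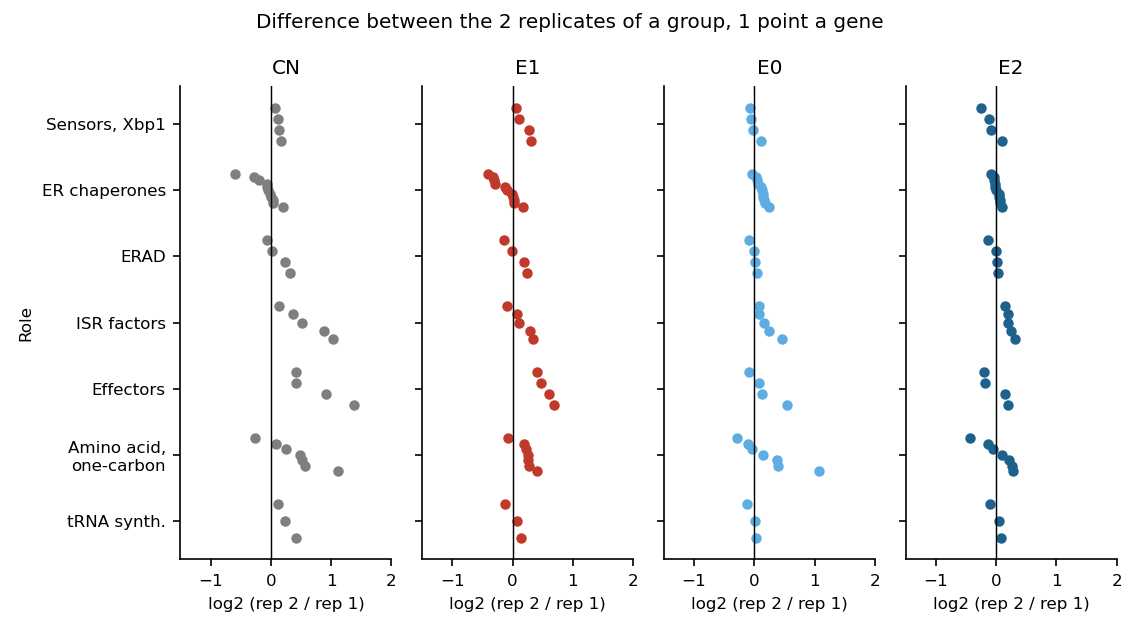
Each point is a member, placed by log2 of replicate 2 over replicate 1 within its group and by role. In CN, factors, effectors and 6 of 7 amino acid enzymes lie right of 0, with medians of 0.51, 0.66 and 0.48, and the chaperones have a median of -0.05.

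Markers of cell types moved between the groups as well. The summed level of 10 eosinophil markers was 7168 to 7397 CPM in CN, 5584 to 6381 in E1, 6551 to 6643 in E0 and 4135 to 4176 in E2. Each of the 10 was measured, and 8 were called lower in E2 than in E0, among them Epx and Prg2. Siglecf was called higher, by 0.28 (adjusted p = 0.0379), and Ear6 was not called. Plasma cells carry a strong ER programme, and the 5 of 7 plasma cell markers in the table summed to 10.7 and 17.0 CPM in E0 and 30.8 and 37.2 CPM in E2, against 7.41 to 9.96 CPM in CN and E1. Irf4 and Pou2af1 rose in E2, by 2.76 and 1.72, while Jchain and Mzb1, at means of 7.02 and 1.27 CPM in E2, were not called. B cell markers, 7 of 7 measured, summed to 26.7 to 27.2 CPM in CN and 22.3 to 24.4 in E1. They summed to 32.9 to 34.8 CPM in E0 and 35.4 to 41.8 in E2. Ms4a1 and Cd79b were called higher in E2, and the other 5 were not called. The change was positive for 5 of the 7 and negative for Cd79a (-0.19) and Blk (-0.44). The 6 NK cell markers summed to 11.2 to 12.8 CPM in CN, 7.93 to 9.95 in E1, 28.3 to 31.4 in E0 and 41.5 to 46.5 in E2. Of these, 5 were called higher in E0 than in CN. In E2 over E0, Gzma and Nkg7 were called higher, Klrd1 was called lower by 1.47 (adjusted p = 0.0033), and 3 were not called. Gzma made up most of the rise of the sum, with means of 12.1 CPM in E0 and 29.6 CPM in E2. The 6 of 7 basophil and mast cell markers summed to 48.7 to 54.5 CPM in CN and 35.0 to 42.4 in E1. They summed to 42.4 to 53.4 CPM in E0 and 68.5 to 91.0 in E2. Gata2 made up most of each sum, with means of 40.5 CPM in E0 and 62.7 CPM in E2. Mcpt8, Cma1 and Gata2 were called higher in E2, and 3 were not called. The 11 neutrophil markers measured of 12 summed to 2656 to 3043 CPM in CN and 1326 to 1789 in E1. They summed to 2773 to 3471 CPM in E0 and 930 to 1323 in E2. In E1, 6 were called lower and 4 were not called, while Ly6g was called higher, by 3.21 (adjusted p = 9.63e-07). In E2, 5 were called lower and 6 were not called, among them Cxcr2 (0.07). The 13 of 14 monocyte, macrophage and dendritic cell markers summed to 921 to 1037 CPM in CN and 5217 to 5546 in E1. They summed to 1021 to 1056 CPM in E0 and 1656 to 1727 in E2. Ly6c2, with a mean of 3999 CPM, made up most of the E1 sum. Calls went both ways, with 6 higher and 3 lower in E1 and 5 higher and 6 lower in E2. The part of these shifts in the results above was not tested. In bulk libraries, a change in the share of a cell type and a change in mRNA per cell cannot be told apart.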

How the data were processed

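Reads were aligned with STAR to mm10 and counted with featureCounts, per the submitters' processing notes. Which versions, annotation, strand setting and multi-mapping rule were used is not given in the sources used here. Libraries were made with a stranded mRNA kit, per the labels' protocols. The deposited table holds raw counts per gene made by the authors, 15918 rows. An unnamed row equal to the column totals (100% of the named counts) was left out, and 0 columns belonged to other samples. Of 15917 identifiers, 15730 matched GENCODE (mm10) symbols and 187 did not; positions and exon lengths came from that annotation. Groups were taken from the sample labels.

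All 8 libraries were fitted with 1 mean per group by edgeR 4.0.16 in R 4.3.3 (TMM, filterByExpr, quasi-likelihood F test, two-sided, 4 residual degrees of freedom). The filter removed 4 genes. Benjamini-Hochberg adjustment ran over 15913 genes, and calls had an adjusted p under 0.05. The scripts were tested on simulated counts. Alternatives were other scalings, no filter, DESeq2 1.42.0, limma 3.58.1 (voom), a replicate block, fits to 4 libraries, and leaving out each library.

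All 38 members were named. Other pathway genes were named by a rule, and some genes it would name are not reported here: up to 2 called genes each way per list with the largest change and at least 10 CPM in the higher group, or the highest where none was called. The members, lists and motifs were chosen with earlier results of these data known. Promoters were searched for literal motifs in RefSeq sequences (GRCm38.p6).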

Additional observations from a re-analysis of the deposited data

Results flagged for a closer look

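Genes are listed here because their response to type 2 cytokines (E2 over E0) differed from their response to IFN-γ and TNF-α (E1 over CN) by edgeR's test of the difference itself, at an adjusted p under 0.05. The difference, on the log2 scale, was 2.59 for Xbp1, 2.41 for Psat1, 1.5 for Nupr1, 1.37 for Mthfd2, 1.34 for Atf5 and 1.18 for Ern1. For chaperones and folding genes it was 0.86 for Hyou1, 0.71 for Hsp90b1, 0.69 for Pdia4, 0.61 for Manf, 0.56 for Hspa5 and 0.38 for Dnajc3. Aldh18a1 had 0.76 and Herpud1 0.52. The difference was negative for Wars, at -3.57, and Eif2ak3, at -0.48. Xbp1, Ern1 and Pdia4 were called in opposite directions in the 2 experiments. Groups of 2 were not tested for outlying samples.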

How the results depend on the processing

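The count of members called higher in E2 was 20 under every scaling, filter and other test tried, 24 with only the 4 libraries of that experiment (adding Sdf2l1, Herpud1, Trib3 and Ppp1r15a), and 15 to 20 when 1 library was left out; the single lower call became 1 to 2 then. In E1, members called lower numbered 7 with library totals alone and 5 by the DESeq2 Wald test, and 1 to 5 when 1 library was left out, and those called higher 2 to 5. For the difference of responses, leaving out 1 library gave 10 to 15 higher and 1 to 2 lower. For E0 against CN, the 1 higher call became 0 by the DESeq2 Wald test, by limma-voom and with the 4 libraries alone, and 0 to 1 without 1 library, where lower calls numbered 9 to 18. The cause of these changes was not tested. With a replicate block the counts in E1 were 8 higher and 8 lower, in E2 26 higher and 3 lower, for the difference 20 and 2, and for E0 against CN 1 and 21; it lost no member's call and added 10, 8, 6 and 5. Over all genes the block raised the calls as well, to 17.5 percent higher and 17.2 percent lower in E1 and to 26.1 and 27.5 percent in E2. The added calls take in the effectors Chac1, Sesn2 and Ppp1r15a in E1, and these 3 with Trib3 in E2. Replicate number went with sex in every group, and labels do not say that the numbers pair samples. Replicate differences correlated across 15913 genes at 0.499 between CN and E1 and 0.586 between E0 and E2, and at 0.115 to 0.303 between groups of different experiments. No called member changed direction under any alternative. Members not called changed sign in 36 of 455 member and setting pairs in E1, 3 of 240 in E2, 14 of 292 for the difference and 22 of 303 for E0 against CN. A fit to 4 libraries was not run for the difference, which needs all 8. With 2 libraries a group, standard errors in E1 were 0.28 for Chac1, 0.25 for Pycr1 and 0.25 for Phgdh, which lay near 1 CPM, and 0.39 for Trib3 and 0.40 for Asns.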
